A study of Mus musculus with 8 samples.

Results

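Heart muscle genes were read in whole mouse lung as a set of 38 named genes for the sarcomere, calcium handling, junctions, regulators and energy supply of cardiac muscle. The set was given by gene symbol and not by measured level, and 37 of the 38 symbols are among the 15960 genes of the deposited count table; Corin1 was not analysed here. Of the 37, 35 had enough counts to be among the 13517 genes tested, and Myl2 and Tbx20 did not. The data are gene counts from 8 libraries of C57BL/6 mice aged 3 to 5 months. The 4 control libraries come from Alb-Cre mice, which carry a Cre recombinase driven by the albumin promoter, active in hepatocytes. The 4 BHLKO libraries come from mice with the same Cre and floxed Hif1_alpha (Hif1a) and Bmal1 (Arntl) alleles, so that the genes for a hypoxia factor and a clock activator are targeted in hepatocytes while the organ read here is the lung. All mice were kept for 2 weeks in 12 h light and 12 h dark, the lights stayed off on the day of the experiment, food was freely available, and all lungs carry circadian time 16. The single comparison of the series is BHLKO against Alb-Cre lung, in a model that its title links to hepatopulmonary syndrome. Libraries are named by the numbers of their description labels, which are 1, 2, 4 and 5 for Alb-Cre and 2, 3, 4 and 5 for BHLKO, and values below are given in that order. The labels do not say that each library is a separate animal, so p-values measure the spread between libraries.

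Total counts ran from 6838427 (Alb-Cre replicate 2) to 15430372 (Alb-Cre replicate 5). Lung markers were abundant in every library: Sftpc, the surfactant protein of alveolar type 2 cells, lay between 30152 and 37323 CPM. CPM are counts per 1e6 of the library size after TMM scaling, a correction for differences in composition. The lung list had 1 of 12 genes called (Sftpd, from 1429 ± 103 to 1921 ± 170 CPM, SD, n = 4 each; edgeR adjusted p = 0.0194). The first principal component of all tested genes, with 28.0% of the variance, separated the genotypes, with Alb-Cre replicate 5 nearest to the BHLKO libraries. Over all 13517 tested genes, 140 were called higher (1.04%) and 166 lower (1.23%) in BHLKO at an edgeR adjusted p under 0.05.

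In mice, heart muscle does not end at the atrium. Sleeves of striated cardiomyocytes run along the walls of the pulmonary veins into the lung, and they use the atrial forms of the myosin light chains. In a cardiomyocyte, depolarisation opens the L-type calcium channel, the ryanodine receptor releases calcium from the sarcoplasmic reticulum, calcium binds troponin on the thin filament, and myosin pulls on actin until the calcium pump clears the cytosol. Counts from whole lung give the amount of these transcripts and not the place where they were made.

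Several of these genes share short promoter elements that are known from heart muscle, and windows that hold them are shown. Whether these elements have a part in the levels described below was not tested. RefSeq promoter windows (build GRCm38.p6) were found for 30 of the 38 symbols. In the 250 bases before a listed start, the CArG box, which serum response factor binds, was present in 6 of the 30 genes (20%) and in 1.62% of all 27025 genes with a window. The MEF2 element was present in 3 of 30 (10%, against 3.42%) and the M-CAT element, CATTCC followed by T or A, in 7 of 30 (23.3%, against 9.11%). The letters GATA, preceded by A or T and followed by A or G, were present in 12 of 30 (40%, against 29.7%). TATAAA, searched on the gene strand only whereas the others were searched on both, was present in 2 of 30 (6.67%, against 8.94%). In Myl7 the M-CAT element begins 70 bases and the CArG box 61 bases before the start, so they lie close together without overlap. A gene can have several listed starts, and the start used is one whose window holds the element; in Actc1, Myl3 and Myom1 it lies inside the gene as GENCODE places it. The 130 bases that end at that start are given 5′ to 3′ on the strand of the gene for 7 genes, those with the element nearest to the start, with the CArG box in capitals for the first 5 and the MEF2 element in capitals for the last 2.
Actc1, chr2:114052876-114053005, minus strand: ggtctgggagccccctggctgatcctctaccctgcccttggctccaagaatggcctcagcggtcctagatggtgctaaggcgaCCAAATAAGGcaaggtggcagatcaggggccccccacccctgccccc
Myl7, chr11:5898783-5898912, minus strand: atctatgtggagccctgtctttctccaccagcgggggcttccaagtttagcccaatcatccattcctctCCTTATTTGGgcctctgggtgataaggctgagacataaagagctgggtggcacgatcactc
Myl3, chr9:110763548-110763677, plus strand: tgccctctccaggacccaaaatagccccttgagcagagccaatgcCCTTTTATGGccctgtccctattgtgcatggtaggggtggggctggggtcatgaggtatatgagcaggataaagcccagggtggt
Ldb3, chr14:34588682-34588811, minus strand: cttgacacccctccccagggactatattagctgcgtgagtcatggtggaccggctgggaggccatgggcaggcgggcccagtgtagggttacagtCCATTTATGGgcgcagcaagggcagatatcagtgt
Myom1, chr17:71019427-71019556, plus strand: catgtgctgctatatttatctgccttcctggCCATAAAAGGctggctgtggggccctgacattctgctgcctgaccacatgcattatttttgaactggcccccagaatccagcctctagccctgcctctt
Mybpc3, chr2:91118014-91118143, plus strand: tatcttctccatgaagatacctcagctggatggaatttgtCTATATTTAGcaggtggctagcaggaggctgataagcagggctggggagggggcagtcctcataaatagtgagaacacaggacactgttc
Casq2, chr3:102086285-102086414, plus strand: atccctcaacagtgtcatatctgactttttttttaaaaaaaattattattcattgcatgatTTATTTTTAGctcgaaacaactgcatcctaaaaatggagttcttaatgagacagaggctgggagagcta
A match is a description of the letters and not of a bound site.

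Atrial forms of the light chains prevailed over ventricular forms in these lungs. Per kilobase of annotated exon, the highest mean level over the 8 libraries was that of Myl7, the atrial regulatory light chain, at 1059.5 CPM per kb, followed by the cardiac actin Actc1 at 516 and by Cox6a2, the muscle form of a cytochrome oxidase subunit, at 372 CPM per kb. Myl2, the ventricular regulatory light chain, had 0, 0, 5 and 7 counts in Alb-Cre and 9, 7, 4 and 1 counts in BHLKO libraries, against 3351 to 12497 counts of Myl7. The essential light chains followed the same order, with the atrial Myl4 at 84.6 and the ventricular Myl3 at 13.7 CPM per kb. Myh6, the fast myosin heavy chain of the adult mouse heart, was at 50.3 and the slow Myh7 at 1.73 CPM per kb. Exon lengths are unions over all annotated transcripts, so they understate the level of genes with unused exons, such as titin.

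No member passed the test between genotypes. Of the 35 tested members, 0 were called higher and 0 lower by edgeR, against 1.04% and 1.23% of all tested genes, and 32 had a log2 fold change above 0 (49.7% of all tested genes). At an unadjusted edgeR p under 0.05, 17 members were higher (7.95% of all tested genes) and 1, Myh7, was lower (8.18%). The median log2 fold change was 0.79 over the members and −0.0017 over all tested genes, and the smallest adjusted p was 0.111, for Ryr2. Other tests of the same counts gave other numbers of calls: DESeq2 called 8 members higher (Actc1, Tnnc1, Actn2, Myom1, Xirp1, Ryr2, Atp2a2 and Ankrd1), beside 2.31% of all genes it tested. In limma-voom 1 member was called higher (Ankrd1), beside 0.836%, and neither called a member lower. In whole lung, a difference in the number of heart muscle cells and a difference in RNA per cell cannot be told apart.

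Leaving out 1 library moved the number of calls. Without BHLKO replicate 3, edgeR called 9 members higher: Myl3, Tnnc1, Ttn, Actn2, Xirp1, Ryr2, Casq2, Ankrd1 and Ckmt2, beside 1.07% of all genes then tested. Leaving out any other library gave 0 calls. The summed level of the 37 listed members was 2181, 2788, 4199 and 2921 CPM in Alb-Cre replicates 1, 2, 4 and 5. It was 5811, 2870.2, 4739.9 and 7864 CPM in BHLKO replicates 2, 3, 4 and 5. BHLKO replicate 3 lay inside the Alb-Cre range, the other 3 BHLKO libraries lay above it, and the group means were 3022 ± 848 and 5321 ± 2086 CPM (SD, n = 4 each). The members made up 0.219% of all counts in the lowest library and 0.780% in the highest.

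**Figure D1:**
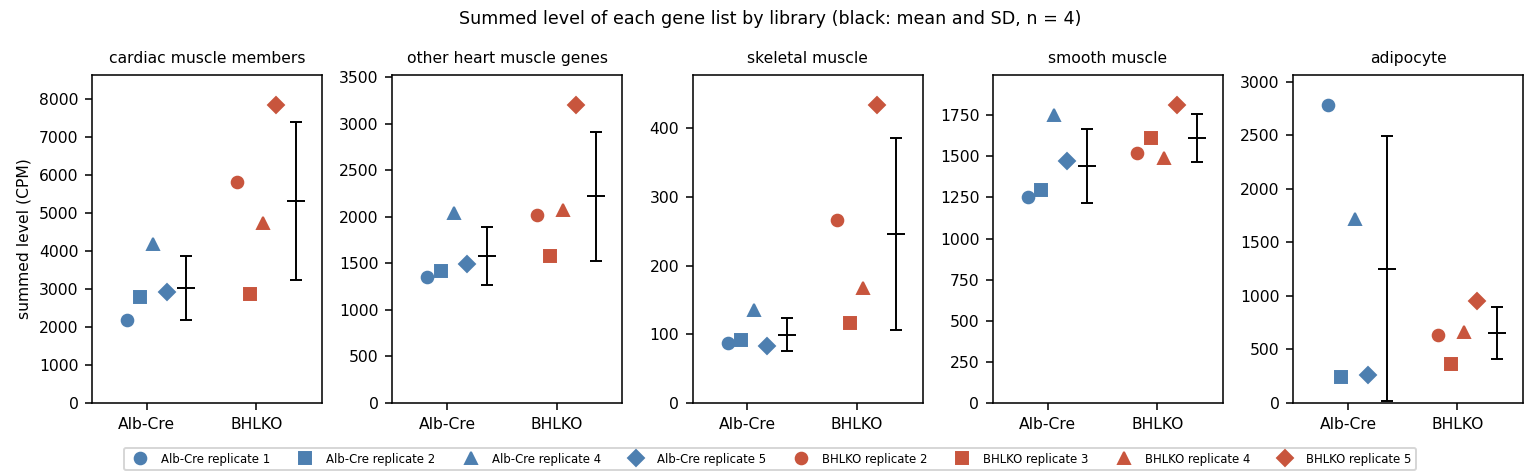
Summed level in CPM of 5 gene lists in each library (symbols) with the mean and SD of 4 libraries per group in black. The cardiac members reach 7864 CPM in BHLKO replicate 5, while BHLKO replicate 3, at 2870.2 CPM, lies within the Alb-Cre range of 2181 to 4199 CPM.

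Most members moved together from library to library. Taking out the median deviation of the members in each library lowered their median SD of log2 CPM from 0.66 to 0.29. Counts of members above 0 or at an unadjusted edgeR p under 0.05, in the set or in a role class, are thus not counts of independent results. Taking out the median deviation of the members in each library did not lower the SD of Myh7, Nebl, Myom2, Jph2 or Cacna1c. Of the 35 tested members, 30 were highest in BHLKO replicate 5, where 12.6% of all tested genes had their highest value, and 24 were lowest in Alb-Cre replicate 1 (13.9% of all tested genes). BHLKO replicate 5 was also the highest library for 30 of 43 further heart muscle genes, 12 of 16 skeletal muscle genes and 6 of 11 smooth muscle genes. It was the highest for 1 of 11 adipocyte, 0 of 5 squamous and 2 of 12 lung genes. Among the BHLKO libraries, replicate 3 was the lowest for 33 of the 35 (25.9%). BHLKO replicates 2, 4 and 5 all lay above every Alb-Cre library for 20 members (7.43%). For 0 members did all 4 BHLKO libraries do so (4.63%), nor did all 4 lie below every Alb-Cre library for any member (4.99%). BHLKO replicates 3 and 5 and Alb-Cre replicate 1 were singled out after the member values were seen. The shares of all tested genes for these libraries, and for BHLKO replicates 2, 4 and 5 together, do not allow for that choice. Within groups the median SD of log2 CPM was 0.55 for the members and 0.23 for all tested genes. The members were thus more variable between libraries of 1 genotype than the typical lung gene.

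**Figure D2:**
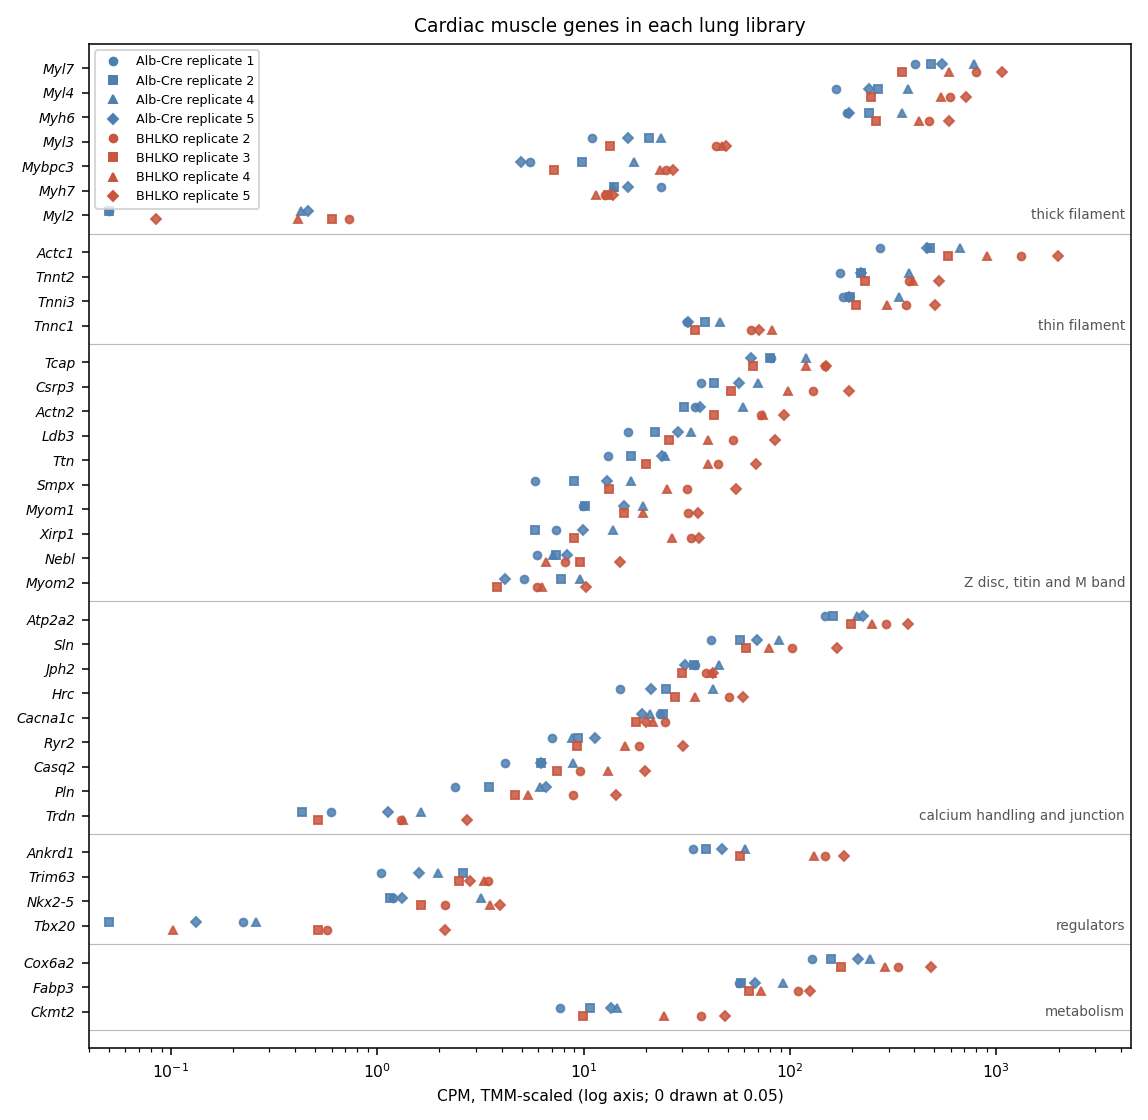
CPM on a log axis for the 37 listed cardiac muscle genes in each of the 8 libraries (blue Alb-Cre, red BHLKO, 1 symbol per replicate), grouped by role; 0 is drawn at 0.05. BHLKO replicate 5 (red diamonds) is the highest library for 30 of the 35 tested members, and the groups overlap for each of the 35.

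Of the 7 thick filament genes, 6 were tested, 5 lay above 0 and the median log2 fold change was 0.92. Myl7, the most abundant per length, was at 403, 484, 775 and 543 CPM in Alb-Cre and 798, 348, 587 and 1062 CPM in BHLKO. Its highest and its lowest library were both BHLKO libraries (log2 fold change 0.34 ± 0.38 SE, 95% interval −0.57 to 1.26; edgeR adjusted p = 0.72). Myl4, its essential light chain partner, was at 167, 267, 375 and 241 CPM and at 595, 247, 538 and 709.7 CPM. The 3 higher BHLKO libraries stood clear of Alb-Cre and replicate 3 lay within it (0.99 ± 0.39; edgeR adjusted p = 0.276). Myl3 was at 11, 20.6, 23.7 and 16.4 CPM and at 44.0, 13.4, 46.6 and 49.1 CPM, so that BHLKO replicate 3 stood far below the other 3, which were close together (1.1 ± 0.44; edgeR adjusted p = 0.281). Myh6, on chromosome 14 from 54941921 to 54966927, was at 188, 241, 348 and 192 CPM and at 471, 259.9, 419 and 589 CPM (0.84 ± 0.30; edgeR adjusted p = 0.235). Mybpc3, the myosin-binding protein that tunes the motor, had a log2 fold change of 1.14 ± 0.56.

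Myh7 was the 1 myosin gene with a log2 fold change below 0. It lies next to Myh6 on chromosome 14, from 54970684 to 54994626, and was at 23.8, 14.0, 13.8 and 16.5 CPM in Alb-Cre and 12.7, 13.1, 11.4 and 13.9 CPM in BHLKO. Alb-Cre replicate 1, the lowest library for most members, was the highest for Myh7, and BHLKO replicates 2, 3 and 4 lay below all Alb-Cre libraries (log2 fold change −0.42 ± 0.19; edgeR adjusted p = 0.275). Without Alb-Cre replicate 1 the log2 fold change was −0.21 (edgeR adjusted p = 0.658), and the unadjusted p was no longer under 0.05. The unadjusted p was also above 0.05 without Alb-Cre replicate 5 or without BHLKO replicate 2, 3 or 4. The exons of Myh7 overlap those of the antisense RNA Mhrt over part of their length, and the strand setting of the counts is not given in the sources used here. Mhrt had 30, 41, 66 and 23 counts in Alb-Cre and 55, 57, 42 and 51 in BHLKO, not scaled to library size. Its lowest counts were in Alb-Cre replicates 5 and 1, the libraries highest for Myh7. The part of the overlap in the values of Myh7 was not tested. Myh6 and Myh7 are close in sequence, and reads that fit both could be assigned to either or dropped.

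All 4 thin filament genes lay above 0, with a median log2 fold change of 0.69. Actc1 had the highest mean CPM of all members over the 8 libraries, with 274, 477, 664 and 463 CPM in Alb-Cre and 1323, 580.4, 905 and 1992 CPM in BHLKO. Replicate 3 was again the one BHLKO library inside the control range (log2 fold change 1.35 ± 0.45, 95% interval 0.25 to 2.45; edgeR adjusted p = 0.22). The share of all member counts taken by Actc1 was 12.5% to 17.1% in Alb-Cre and 19.1% to 25.3% in BHLKO libraries. Such a shift was not particular to Actc1. With the library median of the members taken out, Ankrd1 also lay higher in BHLKO without overlap (log2 −0.47 to −0.26 against 0.015 to 0.49). Myl7 lay lower without overlap (0.14 to 0.33 against −0.41 to −0.12), as did Myom2 and Jph2. Tnnt2, the troponin that ties the complex to tropomyosin, was at 174, 220.4, 378 and 222 CPM and at 375, 232, 393 and 526 CPM. Alb-Cre replicate 4 reached the level of BHLKO replicates 2 and 4 (0.62 ± 0.33; edgeR adjusted p = 0.423). The inhibitory subunit Tnni3 gave 0.60 ± 0.33 and the calcium-binding subunit Tnnc1 0.77 ± 0.25.

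Among the 10 genes of the Z disc, titin and the M band, 9 lay above 0 and the median log2 fold change was 0.96. Tcap, which caps titin at the Z disc, was at 81.2, 80.0, 119 and 64.4 CPM in Alb-Cre and 148, 66.4, 119 and 149 CPM in BHLKO (0.49 ± 0.30; edgeR adjusted p = 0.495). Csrp3, a LIM protein of the Z disc, was at 37.1, 42.6, 69.6 and 56.8 CPM and at 129, 52.0, 98.2 and 194 CPM. BHLKO replicates 2, 4 and 5 lay above all Alb-Cre libraries and replicate 3 did not (1.19 ± 0.43; edgeR adjusted p = 0.246). The largest values in this class were those of Xirp1, an actin-binding protein of the intercalated disc (1.5 ± 0.46), and Smpx, a small muscle protein (1.47 ± 0.51). Titin, the spring of the sarcomere, gave 1.13 ± 0.39, the Z disc protein Ldb3 1.02 ± 0.40, the M-band protein Myom1 0.89 ± 0.30, the Z disc cross-linker Actn2 0.81 ± 0.28 and the nebulin relative Nebl 0.46 ± 0.25. Myom2, an M-band protein shared with fast skeletal muscle, was at −0.01 ± 0.32, and its sign turned under 7 of the 14 alternatives tried.

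**Figure D3:**
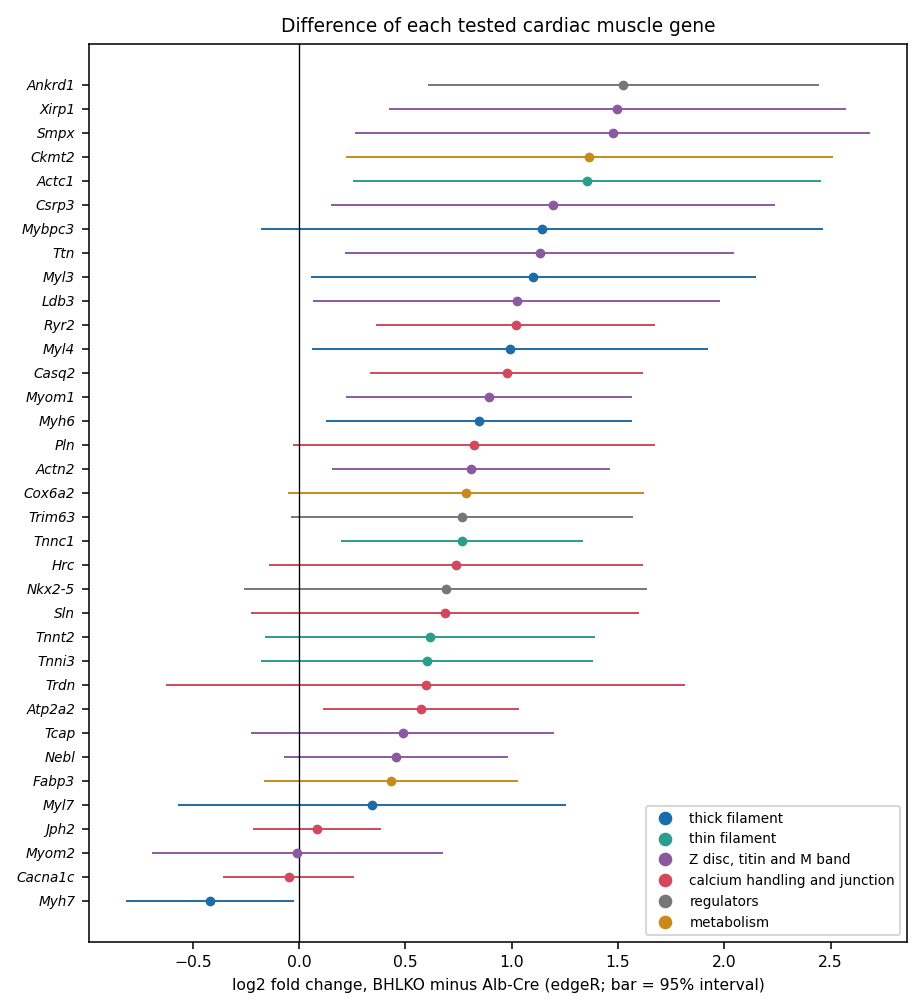
Log2 fold change of BHLKO over Alb-Cre for the 35 tested members, with the 95% interval from edgeR and the role of each gene in colour. Values run from −0.42 for Myh7 to 1.53 for Ankrd1, and 32 of the 35 lie above 0 although 0 pass the adjusted test.

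Of the 9 genes of calcium handling and the junction with the cell membrane, 8 lay above 0 (median log2 fold change 0.69). Atp2a2, the calcium pump of the sarcoplasmic reticulum, was at 148, 162, 211 and 225 CPM in Alb-Cre and 291, 198, 249 and 372 CPM in BHLKO, with 3 of 4 BHLKO libraries above all controls (0.57 ± 0.20; edgeR adjusted p = 0.203). Its inhibitor in atrial muscle, sarcolipin (Sln), was at 41.4, 57.5, 87.9 and 69.1 CPM and at 102, 61.3, 79.4 and 169 CPM, with Alb-Cre replicate 4 above BHLKO replicates 3 and 4 (0.69 ± 0.38; edgeR adjusted p = 0.448). Phospholamban (Pln), the pump inhibitor that prevails in the ventricle, was far lower, at 2.38, 3.47, 6.17 and 6.55 CPM and at 8.88, 4.64, 5.35 and 14.3 CPM (0.82 ± 0.39; edgeR adjusted p = 0.328). Pln exons overlap Cep85l and Gm47644 on the opposite strand, which could remove reads from Pln or from these genes. The overlaps with both sum to 1785 bases, beside 2759 exon bases of Pln, and bases shared with both count in each.

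The release channel Ryr2 had the smallest p of all members (log2 fold change 1.02 ± 0.30, edgeR adjusted p = 0.111), at 6.98 to 11.4 CPM in Alb-Cre and 9.28 to 30.3 CPM in BHLKO libraries. The calcium buffer Casq2, which sits beside it in the reticulum, gave 0.98 ± 0.30, the histidine-rich reticulum protein Hrc 0.74 ± 0.37 and the anchor Trdn 0.60 ± 0.58 at about 1 CPM. Jph2, which holds the reticulum to the cell membrane, stayed between 29.8 and 45.1 CPM in the 8 libraries (0.08 ± 0.14, 95% interval −0.22 to 0.39). Cacna1c, the L-type calcium channel that smooth muscle also uses, stayed between 18 and 24.8 CPM (−0.05 ± 0.15, interval −0.36 to 0.26), and its sign turned without BHLKO replicate 3 (0.025). These are the members with the narrowest intervals around 0.

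The stretch- and stress-responsive cofactor Ankrd1 had the largest log2 fold change of the set. It was at 33.7, 39.0, 60.5 and 46.6 CPM in Alb-Cre and 148, 57.3, 130.3 and 183 CPM in BHLKO, where replicate 3 alone lay within the control range (1.53 ± 0.38, 95% interval 0.60 to 2.45; edgeR adjusted p = 0.119). Trim63, a ubiquitin ligase of muscle breakdown, was at 1.04, 2.60, 1.97 and 1.59 CPM and at 3.42, 2.49, 3.29 and 2.80 CPM (0.77 ± 0.38; edgeR adjusted p = 0.339). The cardiac transcription factor Nkx2-5 was at 1.16 to 3.17 CPM and at 1.63 to 3.91 CPM (0.69 ± 0.45). Tbx20, a T-box factor of the heart, had 0 to 3 counts in Alb-Cre and 1 to 25 counts in BHLKO libraries, and was not tested.

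The 3 genes of energy supply lay above 0 as well. Cox6a2 was at 128, 157, 244 and 213 CPM in Alb-Cre and 334, 176, 287 and 483 CPM in BHLKO, in the same library order as Actc1 in BHLKO (0.79 ± 0.35; edgeR adjusted p = 0.343). Fabp3, the heart fatty acid binding protein, was at 56.5, 57.9, 92.1 and 67.8 CPM and at 109.5, 63.1, 72.7 and 125 CPM, so that Alb-Cre replicate 4 exceeded 2 BHLKO libraries (0.43 ± 0.26; edgeR adjusted p = 0.47). Ckmt2, the mitochondrial creatine kinase of striated muscle, gave 1.37 ± 0.48 (edgeR adjusted p = 0.229), from 11.6 ± 3.12 to 30.0 ± 16.5 CPM (SD, n = 4 each).

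Ratios of 2 members within a library do not depend on library scaling, and 6 such ratios were set against each other between genotypes (two-sided exact permutation of 4 and 4 libraries; smallest possible p 0.0286). The log2 ratio of Actc1 to Tnnt2 was 0.65, 1.11, 0.81 and 1.06 in Alb-Cre and 1.82, 1.33, 1.20 and 1.92 in BHLKO. The groups did not overlap, BHLKO replicate 3 included, with a mean difference of 0.66 (exact permutation p = 0.0286, adjusted over the 6 ratios 0.171). Like the other ratios, this pair was chosen with earlier results of these data known, which the p-value does not allow for. The log2 ratio of Myh7 to Myh6 was −2.98, −4.10, −4.65 and −3.54 in Alb-Cre and −5.21, −4.31, −5.19 and −5.40 in BHLKO, with overlap between Alb-Cre replicate 4 and BHLKO replicate 3 (difference −1.21, exact permutation p = 0.0571, adjusted 0.171). The log2 ratio of Myl3 to Myl4 was −3.87 ± 0.13 and −3.83 ± 0.28 (SD, n = 4 each; exact permutation p = 0.83, adjusted 0.83). For Sln to Pln it was 3.84 ± 0.32 and 3.67 ± 0.16 (exact permutation p = 0.4, adjusted 0.48), and for Pln to Atp2a2 −5.41 ± 0.40 and −5.16 ± 0.37 (exact permutation p = 0.371, adjusted 0.48). Myl2 to Myl7 stayed at or below −9.08 in every library, and its difference of 1.12 rests on single counts (exact permutation p = 0.286, adjusted 0.48). None of the 6 ratios passed after adjustment. Actc1 to Tnnt2 had the smallest possible p and still adjusted to 0.171, so 1 separated ratio alone could not have passed.

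**Figure D4:**
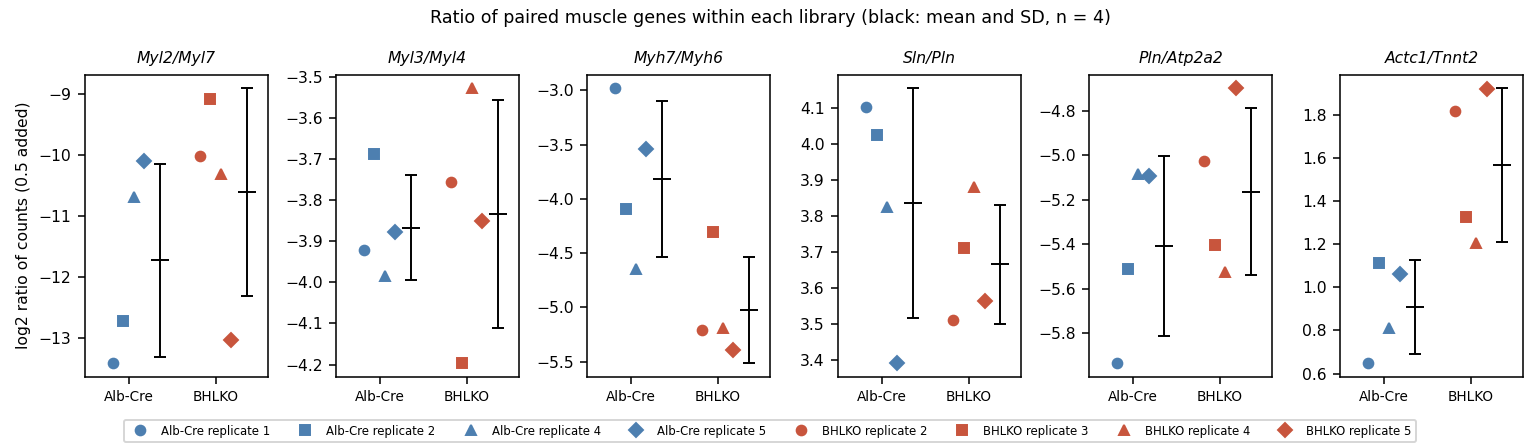
Log2 ratio of counts, with 0.5 added to each count, for 6 pairs of members in each library (symbols), with the mean and SD of 4 libraries in black; each panel has its own axis. The Actc1 to Tnnt2 ratio is 0.65 to 1.11 in Alb-Cre and 1.20 to 1.92 in BHLKO, with no overlap.

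Beyond the set, 43 of 47 further heart muscle genes were tested, 38 lay above 0 and the median log2 fold change was 0.53. Of these, 1 rose, 0 fell and 42 did not pass. The gene that rose was Xirp2, the paralog of Xirp1, from 3.71, 6.07, 6.34 and 4.23 CPM in Alb-Cre to 17.8, 6.96, 17.2 and 19.3 CPM in BHLKO (log2 fold change 1.6 ± 0.30, edgeR adjusted p = 0.0113). Its call was lost without Alb-Cre replicate 1 (edgeR adjusted p = 0.0553) and in limma-voom (limma adjusted p = 0.0514). All BHLKO libraries lay above all controls for 2 of the 43 genes, Xirp2 and the RNA-binding protein Rbm24, a share close to the 4.63% of all tested genes. Nppa, the atrial natriuretic peptide, followed the summed members only in part. It was at 52.3, 108, 228 and 145 CPM and at 53.4, 129.5, 203 and 682 CPM (1.0 ± 0.87, edgeR adjusted p = 0.635). The order of the controls was that of the summed members, and BHLKO replicate 5 was again the highest. BHLKO replicate 2, second highest for summed members, was near the lowest control. The sign of Nppa turned without BHLKO replicate 5 (−0.054). Nppb, the related peptide, had 4, 0, 11 and 20 counts in Alb-Cre and 9, 9, 53 and 203 counts in BHLKO, with the high values in replicates 4 and 5 (3.09 ± 1.28; edgeR adjusted p = 0.302).

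Skeletal muscle genes were also mostly above 0. Of 26 named, 16 were tested, 2 rose, 0 fell and 14 did not pass, and 13 of the 16 lay above 0 (median 0.93). Myl1, a skeletal myosin light chain that is also made in the developing heart, rose 5.24-fold (edgeR adjusted p = 0.029), and its call was lost on leaving out Alb-Cre replicates 1, 2, 4 or 5 or BHLKO replicates 2 or 4. In those fits its log2 fold change was 2.21 to 2.48, against 2.39 with all libraries, and its edgeR adjusted p 0.052 to 0.108. Tnnt1, the slow skeletal troponin T, rose 2.65-fold from 8.86 ± 1.79 to 23.5 ± 8.07 CPM (edgeR adjusted p = 0.00437). The summed level of the listed skeletal genes was 83.4 to 136 CPM in Alb-Cre and 116 to 435 CPM in BHLKO libraries, with replicate 5 the highest and replicate 3 the lowest of the BHLKO libraries. Several skeletal genes that did not pass were well detected. The skeletal actin Acta1 had 94, 89, 161 and 145 counts in Alb-Cre and 321, 98, 280 and 1114 counts in BHLKO (log2 fold change 1.89 ± 0.75; edgeR adjusted p = 0.295). The skeletal calcium pump Atp2a1 had 66 to 145 counts and 86 to 583 counts (1.86 ± 0.57; edgeR adjusted p = 0.18), and the fast troponin Tnnc2 had 7 to 70 and 3 to 261 counts (1.86 ± 1.07). The fast troponin Tnni2 had 68 to 213 and 109 to 517 counts (0.74 ± 0.56). The skeletal release channel Ryr1 was at −1.01 ± 0.29 (edgeR adjusted p = 0.0902). The adult fast myosins Myh2 and Myh4 had 0 to 7 counts per library and the slow troponin Tnni1 0 to 10. How far skeletal muscle RNA took part in the values of genes that both muscles use, such as Tcap, Smpx and Ckmt2, was not tested.

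The smooth muscle list summed to 1252 to 1749.7 CPM in Alb-Cre and 1491 to 1815 CPM in BHLKO. All 11 of its genes lay above 0 (median log2 fold change 0.20). Of these, 1 rose (Itga8, an integrin of fibroblast and muscle cells, 146 ± 13.9 to 201 ± 5.14 CPM, edgeR adjusted p = 0.0116). The adipocyte list summed to 246.5 to 2787 CPM in Alb-Cre and 360.2 to 956 CPM in BHLKO, with 0 of 11 called by edgeR and 0 at an unadjusted p under 0.05. Of the 11, 1 lay above 0 (median log2 fold change −1.06). The adipocyte sum was highest in Alb-Cre replicate 1, the library lowest for most heart muscle members. It was next highest, at 1722 CPM, in Alb-Cre replicate 4, the control highest for summed members. Alb-Cre replicates 2 and 5, between these for summed members, were at 246.5 and 263 CPM. Lep, Plin1, Retn and Elovl3 had the smallest p of that list, with log2 fold changes of −1.53 ± 1.09, −1.20 ± 0.82, −1.33 ± 0.90 and 1.64 ± 1.09. Ucp1, the uncoupling protein of brown fat, was at 78.7, 4.48, 48.1 and 5.76 CPM and at 54.8, 0.516, 0.823 and 9.69 CPM. The 5 squamous keratins summed to 20.9 to 117 CPM in Alb-Cre and 4.81 to 28.2 CPM in BHLKO, with 0 of 5 called by edgeR and 0 at an unadjusted p under 0.05. Of these, 0 lay above 0 (median log2 fold change −1.10). The smallest p were those of Krt15, Krt5, Krt13 and Krt14 (edgeR adjusted p from 0.47 to 0.685). Alb-Cre replicate 4, the control highest for summed members, held the 117 CPM; the part of fat or squamous epithelium in the values of the members was not tested.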

How the data were processed

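RNA from 8 lung libraries was counted per gene. The submitters' processing notes name HTSeq, STAR 2.5.2b, DESeq2 and cutadapt and the mm10 build, without role or order. The deposited table holds whole-number read counts per gene and, per the file headers, a normalized signal. In the deposited signal every library is its counts over a single constant that matches a recomputed DESeq2 size factor; it was not tested. All 16 columns were matched by description label.

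Counts were tested in R 4.3.3 with edgeR 4.0.16 (TMM, filterByExpr by group, robust quasi-likelihood F test, Benjamini-Hochberg over 13517 genes, threshold 0.05), with limma 3.58.1 and DESeq2 1.42.0 as alternatives. The filter kept 99.9% of counts. SE is the fold change over the root of F. On simulated counts over 13517 genes for this comparison edgeR recovered 32.8%, 65.7% and 83.3% of genes changed 1.5-, 2- and 4-fold, with 3.2% false calls. The changed genes were drawn at random from the tested genes and not from the members. The median dispersion, the edgeR measure of spread between libraries, was 0.114 for the members and 0.030 for all tested genes. The recovered shares therefore do not carry over to the members. Exon lengths and overlaps are from GENCODE M21 (mm10), promoters from RefSeq GRCm38.p6. Reads carry no molecular identifiers.

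The members, lists and ratios were chosen with earlier results of these data known. Values in every library are given for the 2 members of each role with the highest mean CPM, members of a ratio, and any called or non-overlapping; other lists name called genes, or else the 4 with the smallest p. Nppb, Rbm24, Acta1, Atp2a1, Tnnc2, Tnni2, Ryr1, Tnni1, Myh2, Myh4, Tbx20 and ranges of further members were named after their values were seen. Library order and co-movement were described after the data were seen.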

Additional observations from a re-analysis of the deposited data

Results flagged for a closer look

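In 118 groups of 4 libraries examined, 7 held a library far from the other 3, where chance flags about 1 in 20 groups. Myl3 in BHLKO replicate 3 was at 13.4 CPM, against 44.0 to 49.1 CPM in the other BHLKO libraries. Tnni3 in Alb-Cre replicate 4 was at 336 CPM, against 181 to 194 CPM in the other controls, and Nkx2-5 in the same library was at 3.17 CPM, against 1.16 to 1.32 CPM. The squamous keratins Krt15 and Krt5 were also high in Alb-Cre replicate 4, at 49.6 and 20.1 CPM, against 3.64 to 8.66 and 0.966 to 1.85 CPM in the other controls. Krt14 in Alb-Cre replicate 2 was at 0.578 CPM, against 2.91 to 3.19 CPM. Ucp1 in BHLKO replicate 2 was at 54.8 CPM, against 0.516 to 9.69 CPM in the other BHLKO libraries.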

How the results depend on the processing

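The median log2 fold change of the members kept its direction under all 14 alternatives, with 0.64 to 1.0 on leaving out 1 library. Genes called higher numbered 140, with 318 in DESeq2 and 53 to 267 on leaving out 1 library; genes called lower numbered 166, with 363 and 78 to 253. Members called higher numbered 0, with 8 in DESeq2, 1 in limma-voom and 0 to 9 on leaving out 1 library; members at an unadjusted p under 0.05 numbered 18, with 7 to 26. Other heart muscle genes called numbered 1, with 5 in DESeq2, 0 in limma-voom and 0 to 4 on leaving out 1 library, and skeletal muscle genes 2, with 4 in DESeq2 and 1 to 2. The cause of these shifts was not tested. Fits that leave out 1 library also hold fewer libraries. Replicate numbers did not pair the libraries: same-numbered deviations correlated at −0.01 to 0.07, and 3 of 6 (description numbers) or 3 of 8 (title numbers) libraries correlated best with their own number. With description numbers as a replicate block, 83 genes were called higher and 82 lower. Among them were 8 members, all higher, and 4 other heart muscle and 0 smooth muscle genes. Description numbers 1 and 3 each occur in 1 genotype only. Alb-Cre replicate 1 and BHLKO replicate 3 thus do not inform the genotype difference of that fit, which rests on 3 pairs. Leaving out BHLKO replicate 3 alone gave 9 member calls. With title numbers as a replicate block, 3 members and 4 other heart muscle genes were called. Under the description block the signs of Cacna1c (0.053), Myom2 (0.10), Lep (0.060), Plin1 (0.059) and Ucp1 (0.16) turned, and under limma-voom that of Myom2 (0.044). Leaving out 1 library gave −0.13 to 0.025 for Cacna1c, −0.31 to 0.23 for Myom2, −0.054 to 1.39 for Nppa, −2.59 to 0.053 for Krt5 and −0.067 to 0.16 for the Myl3 to Myl4 ratio. Of 490 refits of single members, 29 were newly past the threshold and 9 turned sign, all in Cacna1c and Myom2. With 3 libraries against 4 an exact p cannot go below 0.0571, nor below 0.125 in the sign-flip test of paired ratios. Tbx20 and Myl2, at 0 to 25 counts, are limited by depth.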
